A study of Mus musculus with 9 samples.

Results

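The genes described here code for the entrance to the secretory pathway: the machinery that brings new proteins into the endoplasmic reticulum (ER) and the COPII and COPI coats that carry them between the ER and the Golgi apparatus. They are a named list of 48 mouse genes, matched by symbol to the gene IDs of the deposited count tables, out of 55416 genes in those tables. The rule for the list names functions and uses no measured value, but the list was drawn up with earlier results of these data known. All 48 were found and all 48 passed the filter on low counts, which left 13439 genes for testing.

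The data are RNA sequencing counts from 4T1 cells, an established mammary carcinoma line from the BALB/c mouse that is widely used as a model of metastatic breast cancer. The 3 groups of 3 libraries each had the same cells and the same 12 h in DMEM medium: with nothing added (called PBS in the labels), with MRC nanoparticles (MRC), or with MRC nanoparticles and red light of 660 nm for 3 min (MRC+L). The labels print an irradiance of 180 per square centimetre with the unit mW in one field and mV in another, and they do not spell out MRC. The series title concerns photodynamic nanostimulators, particles meant to act under light, and the design text names a comparison of the 3 groups; a group with light and no particles is not among the samples analysed here. Nothing in the labels says whether the libraries of a group are separate cultures. The p-values therefore speak only of the scatter among these libraries, and that scatter may be technical.

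As background, a protein bound for secretion or for a membrane carries a signal peptide that is recognised by the signal recognition particle (SRP) as it leaves the ribosome. SRP docks at its receptor on the ER, the chain passes through the Sec61 channel with help from the TRAP complex, and signal peptidase removes the signal peptide. Folded cargo then leaves in vesicles coated with COPII, whose Sec24 subunits select the cargo, while COPI vesicles bring escaped ER residents back with the help of KDEL receptors. In secretory and stressed cells many of these genes are targets of the unfolded protein response, the programme that widens ER capacity through the transcription factors XBP1 and ATF6.

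Library totals lay between 15019765 and 20044166 counts. Levels are CPM (counts of a gene relative to the library total, scaled with TMM factors), and group values are means ± SD over n = 3 libraries. The labelled line was checked against markers. Krt8 and Krt18, keratins of simple epithelia, reached 306 to 905 and 169.5 to 823 CPM, whereas Epcam, an epithelial adhesion gene, was at 0 to 0.311 CPM. The summed level of 9 epithelial markers was 1074 to 1917 CPM in PBS, 681 to 713 CPM in MRC and 604 to 616 CPM in MRC+L, and most of it is Krt8 and Krt18. The single markers differed. In MRC against PBS, 2 of the 7 tested were called lower (Krt8 and Krt18) and 2 higher, beside 19.8% and 17.8% of all genes. The 2 were Cldn3, from 26.4 ± 11.1 to 45.9 ± 2.83 CPM, and Cldn4, from 0.214 ± 0.0498 to 0.711 ± 0.212 CPM. With only the 6 libraries of PBS and MRC, Cldn3 was not called and Cldn4 was not tested. Cdh1, the E-cadherin gene, measured 4.66 ± 0.729 CPM without and 3.2 ± 0.222 CPM with MRC and was not called in MRC. In MRC+L against PBS, 4 of the 7 were called lower and 2 higher, beside 24.5% and 21.8% of all genes. The 8 leukocyte markers summed to 0.0622 to 1.74 CPM per library, with Cd3e, Adgre1 and Ncr1 at 0 in all libraries, which limits each to the level of 3 counts (0.150 to 0.200 CPM, counting error only). The 7 fibroblast and endothelial markers summed to 33.3 to 63.2 CPM in PBS, 75.4 to 89.6 CPM in MRC and 70.6 to 80.8 CPM in MRC+L, nearly all of it Pdgfra. The summed keratin level and the Pdgfra-containing sum thus differed between PBS and both treated groups, and their part in the results below was not tested. In bulk RNA, fewer cells of a type and less RNA per cell cannot be told apart.

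PBS replicate 2 stood apart from the other libraries. Its counts were shifted towards genes with short exons: the median log2 deviation of the shortest genes minus that of the longest was 0.97 there and lay between -0.26 and 0.10 in the other 8 libraries. The shift reached the secretory genes. Results without this library are therefore also given for the full list and for some role groups and single genes. They are not given for every gene whose value moved.

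With MRC particles, 29 of the 48 secretory genes rose and 0 fell. In PBS the 48 genes took 0.679%, 0.648% and 0.673% of all counts in replicates 1, 2 and 3. In MRC they took 0.960%, 0.930% and 0.946%, and in MRC+L 1.00%, 0.986% and 0.983%, so that the 3 PBS libraries lay below all 6 others. Against PBS, 29 of the 48 genes were called higher in MRC at a Benjamini-Hochberg adjusted p under 0.05 (edgeR quasi-likelihood test over all 13439 genes), 0 were called lower and 19 were not called. Among all genes tested, 17.8% were called higher and 19.8% lower. The median log2 fold change of the 48 was 0.42, and that of all genes was -0.03.

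In MRC+L against the same PBS libraries, 31 of the 48 were called higher and 0 lower, where 21.8% and 24.5% of all genes were called. The median was 0.48, beside -0.03 for all genes. The changes were mostly moderate. Only Sec24d and Sec61a1 passed 2-fold in MRC, a size that 5.91% of all genes reached upwards, and in MRC+L Sec24d, Sec61a1, Sec24a and Srprb did, where the share of all genes was 8.28%. Without PBS replicate 2, Sec24d, Srprb and Kdelr3 passed 2-fold in MRC (log2 fold changes 1.19, 1.07 and 1.15), and Sec61a1 did not (0.87). In MRC+L, Sec24d, Srprb, Kdelr3 and Sec61a1 then passed it (1.46, 1.13, 1.21 and 1.05), and Sec24a did not (0.83). The share of all genes of that size was not taken for that fit. The 3 libraries of the treated group all lay above the 3 PBS libraries for 32 of the 48 genes in each of the 2 comparisons, and all below for 0. Of all genes, 24.1% lay above and 24.2% below in MRC, and 28.2% above and 28.1% below in MRC+L. The 2 comparisons share their PBS libraries, so their calls are not separate evidence. With only the 6 libraries of the groups compared, 21 of the 48 were called higher in MRC and 27 in MRC+L, and 0 lower. Of all genes 12.9% were then called higher and 15.7% lower in MRC, and 17.2% and 20.1% in MRC+L. The calls lost were those of Copb2, Sec11a, Sec22b, Sec24a, Sec24c, Sec63, Tmed2 and Tmed10 in MRC and of Sec24c, Sec62, Tmed2 and Tmed10 in MRC+L.

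**Figure D1:**
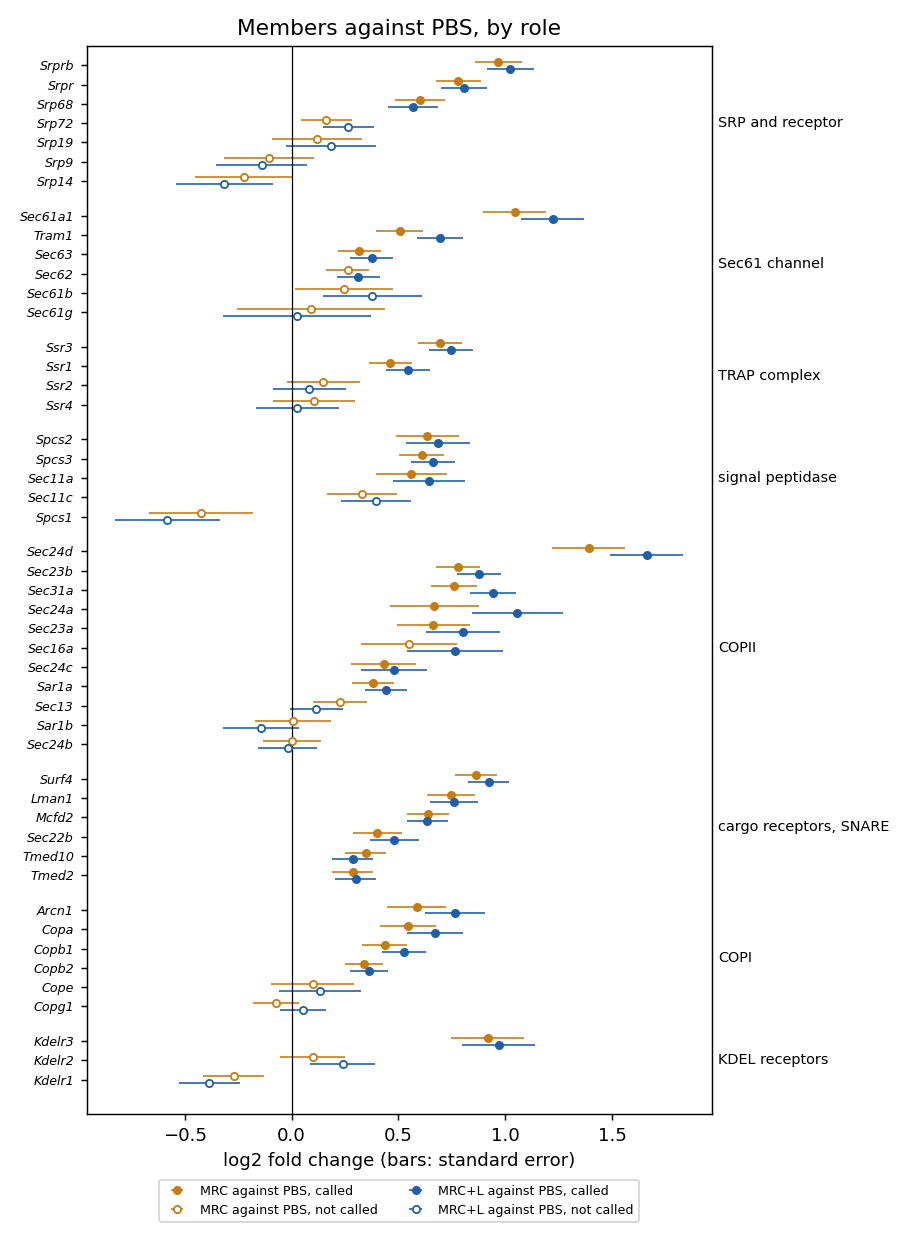
Log2 fold change of each of the 48 genes in MRC (orange) and MRC+L (blue) against PBS, grouped by role, with bars of 1 standard error; filled circles are called higher at adjusted p under 0.05. The filled circles reach from 0.29 to 1.66, all called genes lie to the right of 0, and open circles gather near 0 with Spcs1 and Kdelr1 farthest to the left.

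A known stress motif lay close to the start of 5 genes. The motif is the core of the unfolded protein response element, TGACGTGG, to which XBP1 and ATF6 are known to bind. It was searched on both strands in windows from 250 bases before to 50 bases after the start, from RefSeq on GRCm38.p6, where 37 of the 48 genes had a window. It was present in 5 of 37 (13.5%), beside 193 of 27025 genes (0.714%) and 222 of 32851 windows (0.676%). All 5 were called higher in MRC and in MRC+L, and of the 32 genes whose window lacked it 17 (53.1%) and 19 (59.4%) were. Of all genes tested, 17.8% and 21.8% were called higher. Most called genes thus do not have the motif in this window. With the 6 libraries of PBS and MRC, 21 of the 29 calls in MRC remained, and that of Copb2 was lost (edgeR adjusted p = 0.0513). No test of the difference between genes with and without the motif was made. The windows below are printed 5′ to 3′ on the strand of the gene, with the motif in capitals; where it reads CCACGTCA, the motif is on the other strand.
Sec24d, chr3:123267450-123267495, + strand: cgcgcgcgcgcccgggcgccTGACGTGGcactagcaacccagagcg
Kdelr3, chr15:79516358-79516405, + strand: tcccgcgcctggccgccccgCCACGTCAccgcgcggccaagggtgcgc
Copb1, chr7:114254681-114254728, - strand: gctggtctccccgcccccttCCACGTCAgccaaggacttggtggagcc
Copb2, chr9:98563714-98563741, + strand: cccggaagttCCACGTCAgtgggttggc
Sec23a, chr12:59011994-59012021, - strand: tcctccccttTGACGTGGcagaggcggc
The motif begins 26 bases before the start in Sec24d, 30 in Kdelr3, 28 in Copb1 and 7 in Copb2, and in Sec23a it lies after the start. These 5 belong to 3 role groups: the COPII coat, the COPI coat and the KDEL receptors. The related elements, ERSE (CCAAT and CCACG with 9 bases between) and ERSE-II (ATTGG and CCACG with 1 base between), and the amino acid response element TGATGNAAT were in 0 of the 37 windows. They were in 0.137%, 0.0444% and 1.08% of all genes. A match is a stretch of letters and not a measured binding site.

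At the ER membrane, both genes of the SRP receptor rose, and of the 5 genes of the particle 1 did. These 3 of 7 genes were called higher in MRC (17.8% of all genes), and the median over the 7 was 0.16. Without PBS replicate 2, 4 of the 7 were called higher and the median was 0.45, and with 6 libraries 3 were called. Srprb (chr9:103065231-103079336; gene positions are those of the deposited tables on GRCm39, and counts are over exons), the membrane-anchored beta subunit of the receptor, stood at 80.1, 94.2 and 72.6 CPM in PBS, at 159.8, 164 and 159 CPM in MRC and at 163, 172 and 167 CPM in MRC+L. The 3 PBS libraries were low, and both treated groups lay clear above them with a narrow spread. The log2 fold change was 0.97 ± 0.11 (SE) in MRC (edgeR adjusted p = 0.000125) and 1.02 ± 0.11 in MRC+L (edgeR adjusted p = 6.45e-05).

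Srpr (chr9:35111471-35159269), the alpha subunit to which SRP docks, was at 484, 401 and 474 CPM in PBS, 806, 768 and 757 CPM in MRC, and 778, 801 and 797 CPM in MRC+L. Again no treated library came down to a PBS library. Relative to PBS the log2 fold change was 0.78 ± 0.11 in MRC (edgeR adjusted p = 0.000346) and 0.81 ± 0.11 in MRC+L (edgeR adjusted p = 0.000216). Per kilobase of exon Srpr had the highest level of all 48 genes in PBS, 135 CPM per kb.

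Within the particle itself, Srp68, which joins Srp72 in binding the RNA scaffold, was called, going from 148 ± 21.8 CPM in PBS to 225 ± 8.5 CPM in MRC (log2 fold change 0.60, edgeR adjusted p = 0.00294). Its partner Srp72 was at 208 ± 31.1 and 232 ± 2.91 CPM and was not called (log2 fold change 0.16, edgeR adjusted p = 0.306). Srp19, which helps the particle assemble, had a log2 fold change of 0.12 in MRC, and Srp9 and Srp14, the pair that slows translation while the ribosome is carried to the ER, had -0.10 and -0.22. Without PBS replicate 2 these 3 values became 0.45, 0.22 and 0.15, and Srp19 was called (edgeR adjusted p = 0.00057). Srp14 in MRC+L was called lower without PBS replicate 3 (log2 fold change -0.52, edgeR adjusted p = 0.0388).

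At the channel, the pore subunit moved most. Sec61a1 (chr6:88480561-88495887), which forms the pore, was at 184, 124 and 185 CPM in PBS, 342, 339.9 and 335 CPM in MRC, and 389.8, 389 and 371 CPM in MRC+L. The groups formed 3 separate steps, with the lowest MRC+L library above the highest MRC library. The log2 fold change against PBS was 1.04 ± 0.15 in MRC (edgeR adjusted p = 0.000427) and 1.22 ± 0.15 in MRC+L (edgeR adjusted p = 0.000129). Exons of other genes cover 8.16% of the exon bases of Sec61a1, and without a strand setting in the counting those reads cannot be assigned.

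Tram1 (chr1:13634922-13660134), a membrane protein beside the channel that helps some chains across, was at 163, 189.6 and 174 CPM in PBS, 269.8, 222 and 256 CPM in MRC, and 283, 288 and 283 CPM in MRC+L. Its MRC libraries were more spread than its MRC+L libraries, and neither group overlapped PBS. This gave a log2 fold change of 0.51 ± 0.11 in MRC (edgeR adjusted p = 0.00479) and 0.69 ± 0.11 in MRC+L (edgeR adjusted p = 0.000624).

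Sec62 and Sec63 assist chains that enter after translation. Sec63 went from 127 ± 8.35 to 159 ± 10.9 CPM in MRC (log2 fold change 0.32, edgeR adjusted p = 0.0304), a call that was lost when PBS replicate 1, MRC replicate 1 or 3, or MRC+L replicate 2 or 3 was left out (edgeR adjusted p = 0.0508 to 0.117). In MRC+L the Sec63 log2 fold change was 0.38 (edgeR adjusted p = 0.012), and it was 0.35 without MRC+L replicate 1 (edgeR adjusted p = 0.0503). Sec62 was called in MRC+L (log2 fold change 0.31, edgeR adjusted p = 0.0289) and not in MRC (0.26, edgeR adjusted p = 0.0649); the MRC+L call was lost without PBS replicate 1 or 3, MRC replicate 3 or any single MRC+L library (edgeR adjusted p = 0.0515 to 0.101). The 2 small partners of the pore, Sec61b and Sec61g, had log2 fold changes of 0.25 and 0.09 in MRC and were not called. With all libraries 3 of the 6 channel genes were called higher in MRC (17.8% of all genes), and 2 with 6 libraries (12.9%). Without PBS replicate 2 all 6 channel genes were called higher in MRC (24.7% of all genes). Sec61b then had 0.60 (edgeR adjusted p = 0.000357) and Sec61g 0.73 (edgeR adjusted p = 0.000419).

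The TRAP complex, which sits on the channel and eases the entry of some signal peptides, rose in 2 of its 4 subunits. Of all genes 17.8% were called higher in MRC and 21.8% in MRC+L. With 6 libraries 2 of the 4 were called as well. Ssr3 (chr3:65287076-65300044), the gamma subunit, was at 462, 453 and 480.3 CPM in PBS, 811, 673 and 774 CPM in MRC, and 766, 784 and 789 CPM in MRC+L. Both treated groups lay far above PBS, with MRC replicate 2 the lowest treated library. Fitted against PBS, the log2 fold change was 0.69 ± 0.10 in MRC (edgeR adjusted p = 0.000624) and 0.74 ± 0.10 in MRC+L (edgeR adjusted p = 0.000321).

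Ssr1 (chr13:38150581-38178193), the alpha subunit, was at 229.9, 221 and 245 CPM in PBS, 338, 288 and 333 CPM in MRC, and 343, 341 and 332 CPM in MRC+L. Here too the groups did not overlap PBS, and the log2 fold change was 0.46 ± 0.10 in MRC (edgeR adjusted p = 0.00553) and 0.55 ± 0.10 in MRC+L (edgeR adjusted p = 0.00178). Ssr2 and Ssr4, the beta and delta subunits, had log2 fold changes of 0.15 and 0.10 in MRC and were not called. Both were called without PBS replicate 2, with 0.40 (edgeR adjusted p = 0.000297) and 0.41 (edgeR adjusted p = 0.000511).

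Signal peptidase rose in 3 of its 5 genes in MRC, where 17.8% of all genes were called higher, and the median over the 5 was 0.56. With 6 libraries 2 of the 5 were called, where 12.9% of all genes were. Spcs3 (chr8:54973468-54983033), a subunit needed for cleavage, was at 133, 121 and 121 CPM in PBS, 210.3, 171 and 190.0 CPM in MRC, and 193, 200 and 200.2 CPM in MRC+L. Every treated library lay above every PBS library. The log2 fold change was 0.61 ± 0.10 in MRC (edgeR adjusted p = 0.00137) and 0.66 ± 0.10 in MRC+L (edgeR adjusted p = 0.000661).

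Spcs2 (chr7:99486776-99512669), a subunit that binds the channel side, was at 98.2, 132 and 86.7 CPM in PBS, 161, 155 and 175 CPM in MRC, and 167, 162 and 181 CPM in MRC+L. PBS replicate 2 was the highest of its group but still below all treated libraries. Relative to PBS the log2 fold change was 0.63 ± 0.15 in MRC (edgeR adjusted p = 0.00752) and 0.69 ± 0.15 in MRC+L (edgeR adjusted p = 0.00415).

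The 2 catalytic subunits are alternatives to each other. Sec11a went from 53.1 ± 14.3 CPM in PBS to 78.4 ± 6.54 CPM in MRC (log2 fold change 0.56, edgeR adjusted p = 0.0244), a call that was lost without PBS replicate 1 or 3 or MRC replicate 1 or 3 (edgeR adjusted p = 0.0501 to 0.0961). Sec11c, at 46.2 ± 11.7 and 58.1 ± 2.83 CPM, was not called (log2 fold change 0.33, edgeR adjusted p = 0.136), but was without PBS replicate 2 (0.54, edgeR adjusted p = 0.000102). Spcs1, a small subunit not needed for cleavage itself, was the lowest of the 48 genes, with a log2 fold change of -0.42 in MRC (edgeR adjusted p = 0.197) and -0.58 in MRC+L (edgeR adjusted p = 0.0757). Without PBS replicate 2 its value in MRC was -0.03, and without PBS replicate 3 it was -0.64 and called lower (edgeR adjusted p = 0.0261). In MRC+L the same omission of PBS replicate 3 gave -0.80 (edgeR adjusted p = 0.00761). Of the exon bases of Spcs1, 16.3% are shared with Glt8d1.

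**Figure D2:**
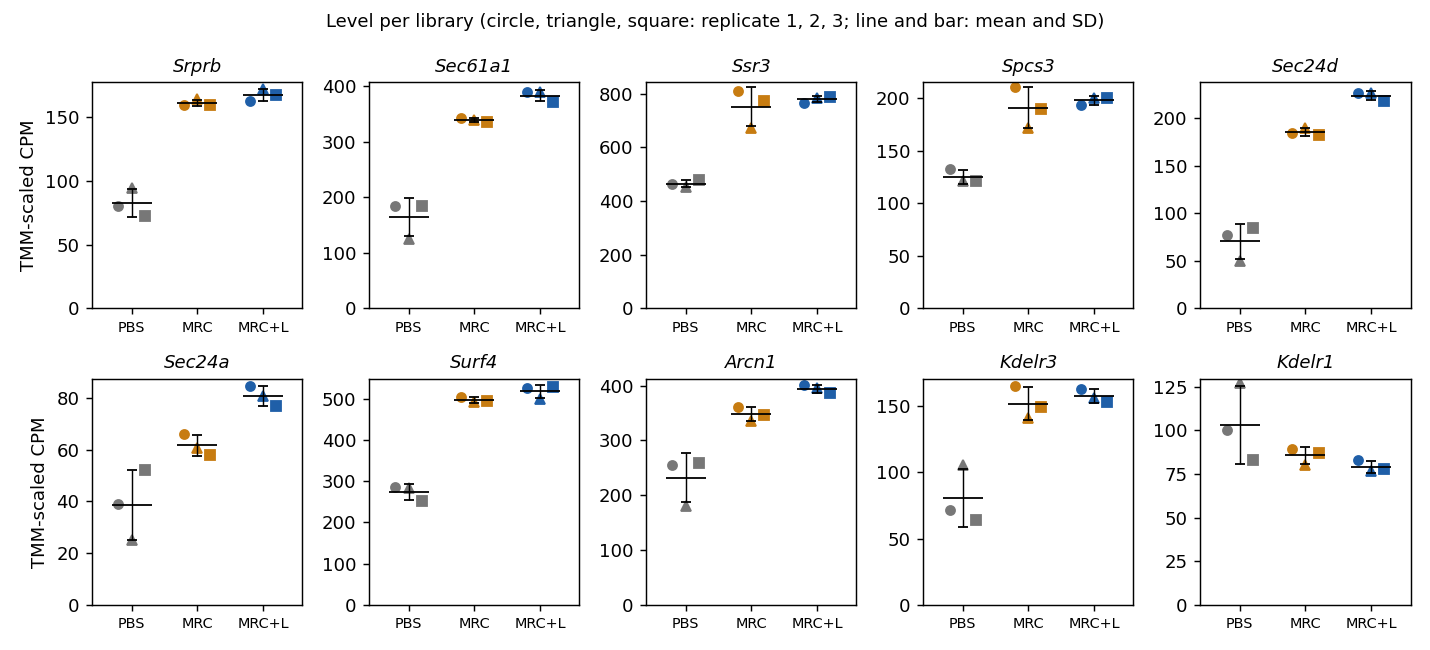
TMM-scaled CPM of 10 of the genes in each library, with circles, triangles and squares for replicates 1, 2 and 3 and with the mean and SD of each group. In 9 of the panels the treated groups lie above PBS (Sec24d rises from 49.9 to 84.9 CPM in PBS to 218 to 227 CPM in MRC+L); in the Kdelr1 panel they lie at or below it.

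In the COPII coat, which buds vesicles from the ER, 7 of 11 genes were called higher in MRC and 8 in MRC+L, with medians of 0.55 and 0.77. Of all genes 17.8% and 21.8% were called higher. Without PBS replicate 2 the counts were 9 and 8, and the medians fell to 0.36 and 0.52. With 6 libraries the counts were 5 and 7. Sec24d (ENSMUSG00000039234, chr3:123061104-123159290), one of 4 cargo-selecting Sec24 subunits, changed most of all 48 genes. It stood at 77.2, 49.9 and 84.9 CPM in PBS, 184, 189.7 and 182 CPM in MRC, and 227, 226 and 218 CPM in MRC+L. The groups were 3 steps with no overlap, and MRC+L was above MRC in every library. The fold against PBS was 2.62 in MRC (log2 fold change 1.39 ± 0.17, edgeR adjusted p = 0.000189) and 3.16 in MRC+L (1.66 ± 0.17, edgeR adjusted p = 4.91e-05).

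Sec24a (chr11:51583091-51654461) was at 38.8, 25.2 and 52.2 CPM in PBS, 66.0, 60.8 and 57.9 CPM in MRC, and 84.4, 80.5 and 76.7 CPM in MRC+L. It too formed 3 steps, on a lower level: per kilobase of exon it had the lowest level of all 48 genes in PBS, 3.63 CPM per kb. This gave a log2 fold change of 0.67 ± 0.21 in MRC (edgeR adjusted p = 0.0303) and 1.06 ± 0.21 in MRC+L (edgeR adjusted p = 0.00261). The call in MRC was lost without PBS replicate 1 or any single MRC library (edgeR adjusted p = 0.0559 to 0.098). Without PBS replicate 2 the log2 fold changes were 0.43 in MRC and 0.83 in MRC+L.

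The other 2 Sec24 genes moved less. Sec24c went from 157 ± 33.5 to 212 ± 18.4 CPM in MRC (log2 fold change 0.43, edgeR adjusted p = 0.0489) and to 219 ± 8.22 CPM in MRC+L (0.48, edgeR adjusted p = 0.0271). With 1 library left out at a time, its lowest log2 fold changes were 0.26 in MRC and 0.31 in MRC+L. The Sec24c call in MRC was lost without any single MRC or MRC+L library (edgeR adjusted p = 0.0702 to 0.149), and the call in MRC+L without any single MRC+L library (edgeR adjusted p = 0.0606 to 0.0821). Sec24b was at 162 ± 27.7, 163 ± 14.7 and 160.3 ± 8.15 CPM in the 3 groups, with log2 fold changes of 0.00 (95% interval -0.30 to 0.31) and -0.02.

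Both Sec23 genes, which form the inner coat with Sec24, were called. Sec23b (chr2:144398149-144432669) was at 94.5, 79.6 and 95 CPM in PBS, 161, 153 and 147 CPM in MRC, and 167, 166 and 161 CPM in MRC+L. The treated libraries sat close together and well above the 3 PBS libraries. Fitted against PBS, the log2 fold change was 0.78 ± 0.10 in MRC (edgeR adjusted p = 0.000285) and 0.88 ± 0.10 in MRC+L (edgeR adjusted p = 0.000104). Its relative Sec23a went from 58.0 ± 15.5 to 91.9 ± 4.14 and 101 ± 1.57 CPM (log2 fold changes 0.66 and 0.80, edgeR adjusted p = 0.0126 and 0.00387). With 1 library left out at a time, the lowest values of Sec23a were 0.46 in MRC and 0.60 in MRC+L.

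Of the outer coat, Sec31a went from 187 ± 18.2 to 317 ± 21.9 CPM in MRC (log2 fold change 0.76, edgeR adjusted p = 0.000438) and 359.9 ± 5.69 CPM in MRC+L (0.94, edgeR adjusted p = 9.11e-05). Its partner Sec13, which is also part of the nuclear pore, was at 63.9 ± 10.4, 74.7 ± 1.29 and 69.2 ± 3.81 CPM and was not called; without PBS replicate 2 it was called in MRC (0.29, edgeR adjusted p = 0.0227). Sec16a, the scaffold of ER exit sites, was called in MRC+L (log2 fold change 0.77, edgeR adjusted p = 0.0186) and not in MRC (0.55, edgeR adjusted p = 0.0779). The Sec16a call in MRC+L was lost without MRC+L replicate 1 (0.70, edgeR adjusted p = 0.0638). In MRC the gene was called without PBS replicate 2 (0.30, edgeR adjusted p = 0.0293) and without PBS replicate 3 (0.79, edgeR adjusted p = 0.0091).

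The 2 Sar1 genes code for the small GTPase that starts the coat, and one of them was called. Sar1a went from 149 ± 4.94 to 195 ± 16.7 CPM in MRC (log2 fold change 0.38, edgeR adjusted p = 0.012; 0.0581 without MRC replicate 1 and 0.052 without MRC replicate 3) and to 203 ± 4.56 CPM in MRC+L (0.44, edgeR adjusted p = 0.00467). Sar1b was at 42.7 ± 11.9, 42.8 ± 4.42 and 38.7 ± 1.95 CPM, with log2 fold changes of 0.01 and -0.14.

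All 6 genes for cargo receptors and the linked membrane fusion protein were called higher in MRC and in MRC+L, with medians of 0.52 and 0.56. Of all genes 17.8% and 21.8% were called higher. With 6 libraries 3 of the 6 were called in MRC and 4 in MRC+L, where 12.9% and 17.2% of all genes were. Surf4 (chr2:26810052-26823940), a receptor for many soluble secreted proteins, was at 286, 283 and 251 CPM in PBS, 506, 491 and 496 CPM in MRC, and 527, 499 and 528 CPM in MRC+L. PBS replicate 2 did not stand out for this gene, and the gap between PBS and the treated groups was larger than the spread within any group. The log2 fold change was 0.86 ± 0.10 in MRC (edgeR adjusted p = 0.000115) and 0.92 ± 0.10 in MRC+L (edgeR adjusted p = 5.61e-05).

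Lman1 (chr18:66113809-66155651), the lectin ERGIC-53 that ferries glycoproteins out of the ER, was at 112, 92.8 and 118 CPM in PBS, 191, 175 and 174 CPM in MRC, and 179, 189.5 and 177 CPM in MRC+L. The treated groups overlapped each other and not PBS. Relative to PBS the log2 fold change was 0.74 ± 0.11 in MRC (edgeR adjusted p = 0.000625) and 0.76 ± 0.11 in MRC+L (edgeR adjusted p = 0.000439). Mcfd2, which works as the partner of Lman1 in the export of clotting factors, went from 70.5 ± 5.12 to 109.7 ± 6.02 and 109 ± 3.03 CPM (log2 fold changes 0.64 and 0.63, edgeR adjusted p = 0.00065 and 0.000536).

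The p24 family genes Tmed2 and Tmed10, whose proteins cycle between ER and Golgi with lipid-anchored cargo, had small changes with calls that depended on single libraries. The Tmed2 log2 fold change was 0.29 in MRC and 0.30 in MRC+L (edgeR adjusted p = 0.04 and 0.0281), and that of Tmed10 was 0.35 and 0.29 (edgeR adjusted p = 0.0176 and 0.034). In MRC, Tmed2 lost its call without any single library other than PBS replicate 2 (edgeR adjusted p = 0.0507 to 0.156), and Tmed10 lost it without PBS replicate 1 or MRC replicate 1 or 3 (edgeR adjusted p = 0.0574 to 0.0767). In MRC+L, Tmed2 lost it without PBS replicate 1 or any single MRC+L library (edgeR adjusted p = 0.0651 to 0.117), and Tmed10 without any single library other than PBS replicate 2 (edgeR adjusted p = 0.0507 to 0.124). Sec22b, a SNARE that fuses vesicles between ER and Golgi, went from 55.2 ± 8.58 to 72.8 ± 0.348 and 76.9 ± 0.856 CPM (log2 fold changes 0.40 and 0.48, edgeR adjusted p = 0.0205 and 0.00706). Its call in MRC was lost without PBS replicate 1 or any single MRC library (edgeR adjusted p = 0.0614 to 0.0777).

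In the COPI coat, which returns material to the ER, 4 of 6 genes were called higher in each treated group, with medians of 0.39 and 0.44. Of all genes 17.8% were called higher in MRC and 21.8% in MRC+L. With 6 libraries 3 of the 6 were called in MRC and 4 in MRC+L. Arcn1 (chr9:44652861-44679142), the delta subunit, was at 256, 180.3 and 259 CPM in PBS, 361, 336 and 347 CPM in MRC, and 401, 395 and 386 CPM in MRC+L. As with Sec61a1 and Sec24d, PBS replicate 2 was the lowest library and the 3 groups did not overlap. This gave a log2 fold change of 0.59 ± 0.14 in MRC (edgeR adjusted p = 0.00794) and 0.76 ± 0.14 in MRC+L (edgeR adjusted p = 0.00153). Without PBS replicate 2 the log2 fold changes of Arcn1 were 0.43 in MRC and 0.61 in MRC+L.

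Copa (chr1:171910096-171949897), the alpha subunit of the outer layer, was at 365, 274 and 369.8 CPM in PBS, 499.9, 511 and 459.8 CPM in MRC, and 561, 512 and 533 CPM in MRC+L. The order of the groups was the same, with the steps closer together. Fitted against PBS, the log2 fold change was 0.55 ± 0.13 in MRC (edgeR adjusted p = 0.0082) and 0.67 ± 0.13 in MRC+L (edgeR adjusted p = 0.00217). With 1 library left out at a time, the lowest values of Copa were 0.41 in MRC and 0.54 in MRC+L. Exons of Ncstn and Gm37756 on the other strand cover 9.58% of its exon bases.

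The beta subunits Copb1 and Copb2, both with the motif printed above, had log2 fold changes of 0.44 and 0.34 in MRC (edgeR adjusted p = 0.00822 and 0.0131) and 0.53 and 0.36 in MRC+L (edgeR adjusted p = 0.00238 and 0.00794). Copb2 lost its call in MRC without PBS replicate 1 or MRC replicate 1 or 3 (edgeR adjusted p = 0.0516 to 0.0528). The epsilon subunit Cope and the gamma subunit Copg1 were not called, with 0.10 and -0.07 in MRC. Without PBS replicate 2, Cope was called (0.37, edgeR adjusted p = 0.00441) and Copg1 was not (-0.15, edgeR adjusted p = 0.133).

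The KDEL receptors, which catch escaped ER chaperones by their tail sequence, differed among themselves. Kdelr3 (ENSMUSG00000010830, chr15:79400612-79411940) was at 71.9, 105 and 64.0 CPM in PBS, 165, 141 and 149 CPM in MRC, and 163, 156 and 153 CPM in MRC+L. Even the highest PBS library, replicate 2, was below all treated libraries. The log2 fold change was 0.92 ± 0.17 in MRC (edgeR adjusted p = 0.0021) and 0.97 ± 0.17 in MRC+L (edgeR adjusted p = 0.00125).

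Kdelr1 (chr7:45522196-45533156) was at 100.1, 127 and 82.8 CPM in PBS, 89.4, 80.4 and 87.1 CPM in MRC, and 83.0, 76.8 and 77.7 CPM in MRC+L. Its groups overlapped, and PBS replicates 1 and 3 differed by about as much as the group means. Relative to PBS the log2 fold change was -0.27 ± 0.14 in MRC (edgeR adjusted p = 0.165) and -0.38 ± 0.14 in MRC+L (edgeR adjusted p = 0.0512), neither of them called. Without PBS replicate 3 both were called lower (-0.41 and -0.52, edgeR adjusted p = 0.0198 and 0.00479), and without PBS replicate 2 the value in MRC was -0.10 (edgeR adjusted p = 0.37). Kdelr2 was at 135 ± 31.7, 145 ± 9.44 and 159 ± 0.957 CPM, with log2 fold changes of 0.10 and 0.24, and was called without PBS replicate 2 (0.29 and 0.43, edgeR adjusted p = 0.014 and 0.00049).

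Several roles are filled by related genes, and their ratio within a library does not depend on how libraries are scaled. The ratios were taken per kilobase of exon and are given as log2 means ± SD over n = 3, with no test, since 3 against 3 libraries cannot reach an exact permutation p under 0.1. The ratio of Kdelr3 to Kdelr1 went from 0.04 ± 0.10 in PBS to 1.23 ± 0.06 in MRC and 1.40 ± 0.03 in MRC+L. The ratio of Kdelr2 to Kdelr1 went from 0.42 ± 0.03 to 0.79 ± 0.02 and 1.04 ± 0.05. In both, the 3 groups did not overlap.

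Among the Sec24 genes, the ratio of Sec24d to Sec24c went from -1.17 ± 0.11 in PBS to -0.20 ± 0.09 in MRC and 0.02 ± 0.05 in MRC+L, so that Sec24d reached the level of Sec24c. The ratio of Sec24b to Sec24a fell from 2.94 ± 0.28 to 2.23 ± 0.11 and 1.82 ± 0.03. In PBS it was 2.98, 3.20 and 2.64 in replicates 1, 2 and 3, and the exon lengths were 6020 and 10683 bases. In both Sec24 ratios the 3 groups did not overlap. The ratio of Sec11c to Sec11a was -0.76 ± 0.07, -0.99 ± 0.14 and -1.01 ± 0.15, with PBS above both treated groups and the treated groups overlapping. For Sar1b to Sar1a (-0.27 ± 0.40, -0.61 ± 0.14 and -0.82 ± 0.06) PBS overlapped MRC, and for Sec23b to Sec23a (0.28 ± 0.28, 0.36 ± 0.07 and 0.32 ± 0.04) all groups overlapped.

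**Figure D3:**
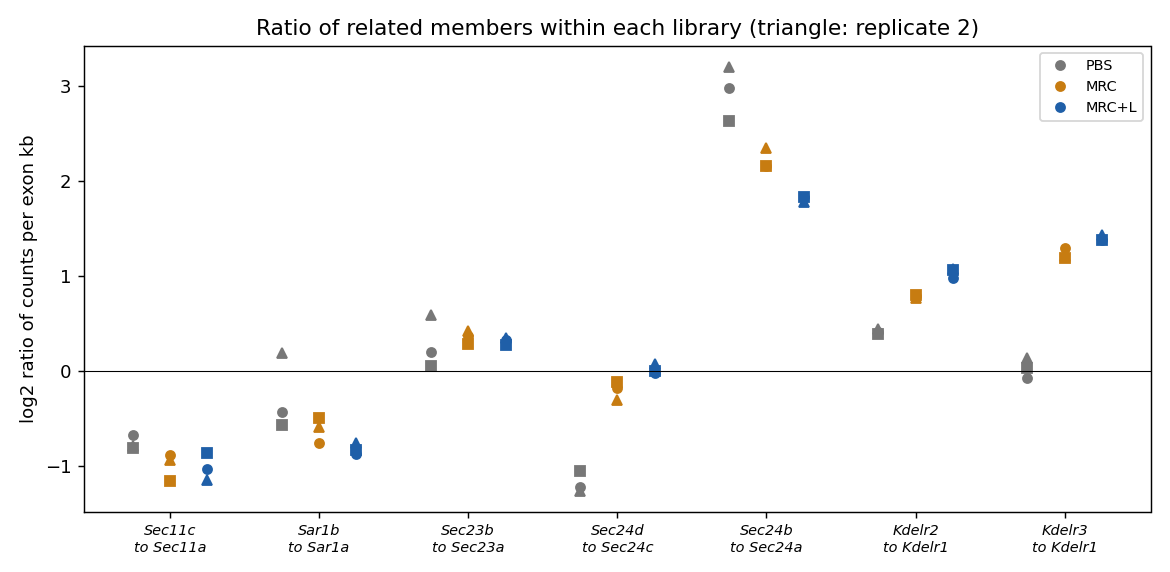
Log2 ratio of 7 pairs of related genes, in counts per kilobase of exon, with 1 point per library in PBS (grey), MRC (orange) and MRC+L (blue). The pairs Sec24d to Sec24c, Sec24b to Sec24a, Kdelr2 to Kdelr1 and Kdelr3 to Kdelr1 show 3 separate groups of points, and the PBS points of Sar1b to Sar1a and Sec23b to Sec23a are spread by replicate 2 (triangles).

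PBS replicate 2 was high for genes with short exons and low for most genes with long exons. Relative to the mean of the other 2 PBS libraries, its log2 level ranged from -0.89 for Sec16a to 1.40 for Sec61g. The 19 genes not called in MRC had a median exon length of 3184 bases, and replicate 2 was the highest PBS library in 15 of them, with a median deviation of 0.64. The 29 called genes had a median exon length of 4840 bases, replicate 2 was highest in 11, and the median deviation was -0.07.

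With that library left out, 40 of the 48 genes were called higher in MRC and 0 lower, where 24.7% and 26% of 13747 genes were called. All 29 earlier calls were among the 40. The 11 additional genes were Srp19, Sec61b, Sec61g, Sec62, Ssr2, Ssr4, Sec11c, Sec13, Sec16a, Cope and Kdelr2, and the 8 called in neither fit were Srp9, Srp14, Srp72, Spcs1, Sar1b, Sec24b, Copg1 and Kdelr1. The median log2 fold change stayed at 0.42. In MRC+L 39 were called higher and 0 lower (27.4% and 28.3% of all genes), with a median of 0.53.

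**Figure D4:**
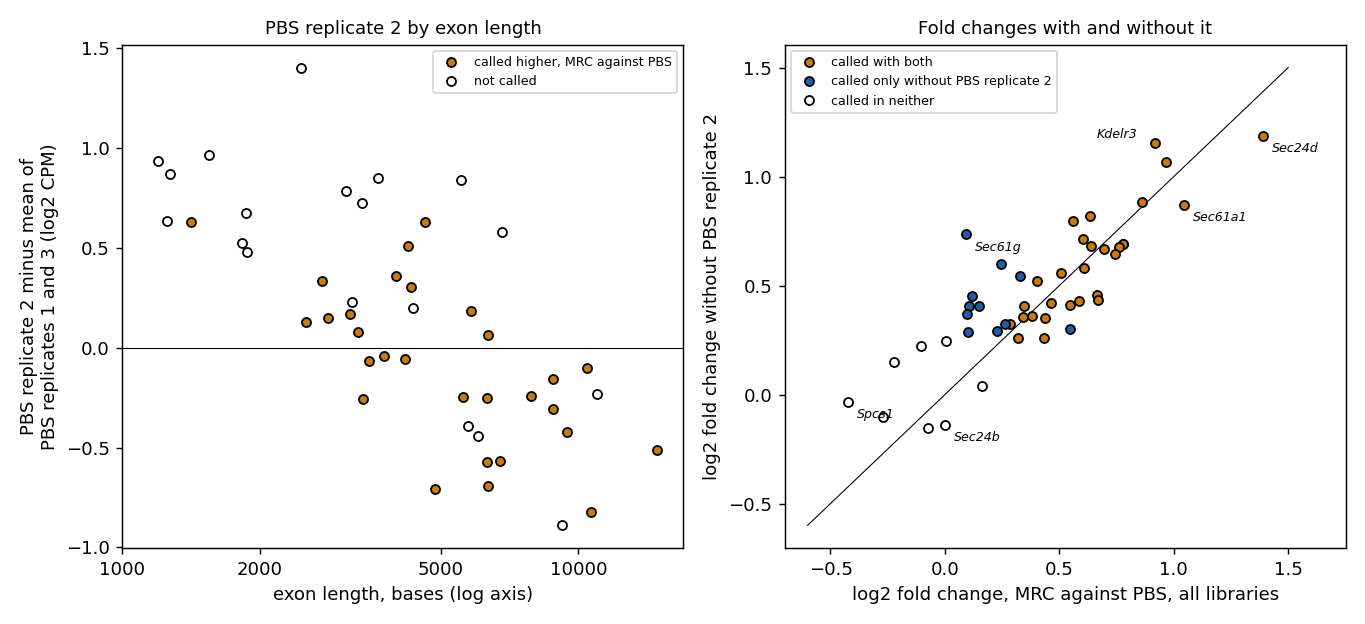
Left, the log2 CPM of each of the 48 genes in PBS replicate 2 minus the mean of PBS replicates 1 and 3 against its exon length on a log axis; right, the log2 fold change in MRC against PBS with all libraries and without PBS replicate 2, with the line of equality. On the left the shortest genes lie above 0 and most of the longest below (from 1.40 to -0.89), and on the right Sec61g moves from 0.09 to 0.73 while Sec24d moves from 1.39 to 1.19.

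Added light was the third comparison, MRC+L against MRC. With all 9 libraries in the edgeR fit, 0 of the 48 genes were called in either direction, as were 0 of all 13439 genes (0%). At an unadjusted p under 0.05 there were 0 of the 48 and 573 of all genes, and DESeq2 called 0 of the 48. The edgeR adjusted p of the 48 lay between 0.988 and 0.997, and their median log2 fold change was 0.05 beside -0.01 for all genes. The 95% intervals of single genes reached down to -0.84 for Sec61g and up to 0.85 for Sec24a, so the fit does not show that the groups were alike.

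The 3 MRC+L libraries nevertheless lay above all 3 MRC libraries for 12 of the 48 genes (11.8% of all genes did so) and below for 1, Sec13 (12.6% of all genes). The 12 were Srp72, Sec61a1, Tram1, Sec24d, Sec23b, Sec31a, Sec24a, Sec23a, Sec22b, Arcn1, Copa and Kdelr2. Of these 12, 5 belong to the COPII coat, which has 11 of the 48 genes. Sec13, the 1 gene below, belongs to it too.

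The fit over all 9 libraries gives the groups 1 shared estimate of the spread, PBS replicate 2 included. With the 6 libraries of MRC and MRC+L alone, edgeR called 2 of the 48 genes higher and 0 lower, where 3.13% and 1.91% of 12955 genes were called. These were Sec24a (log2 fold change 0.39 ± 0.07, edgeR adjusted p = 0.00307) and Sec24d (0.27 ± 0.06, edgeR adjusted p = 0.0112). The limma voom fit with quality weights called the same 2 genes over 9 libraries, where 1.06% of all genes were called higher. Over the 6 libraries it called Sec61a1, Sec16a and Sec31a as well, where 4.47% of all genes were called higher.

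**Figure D5:**
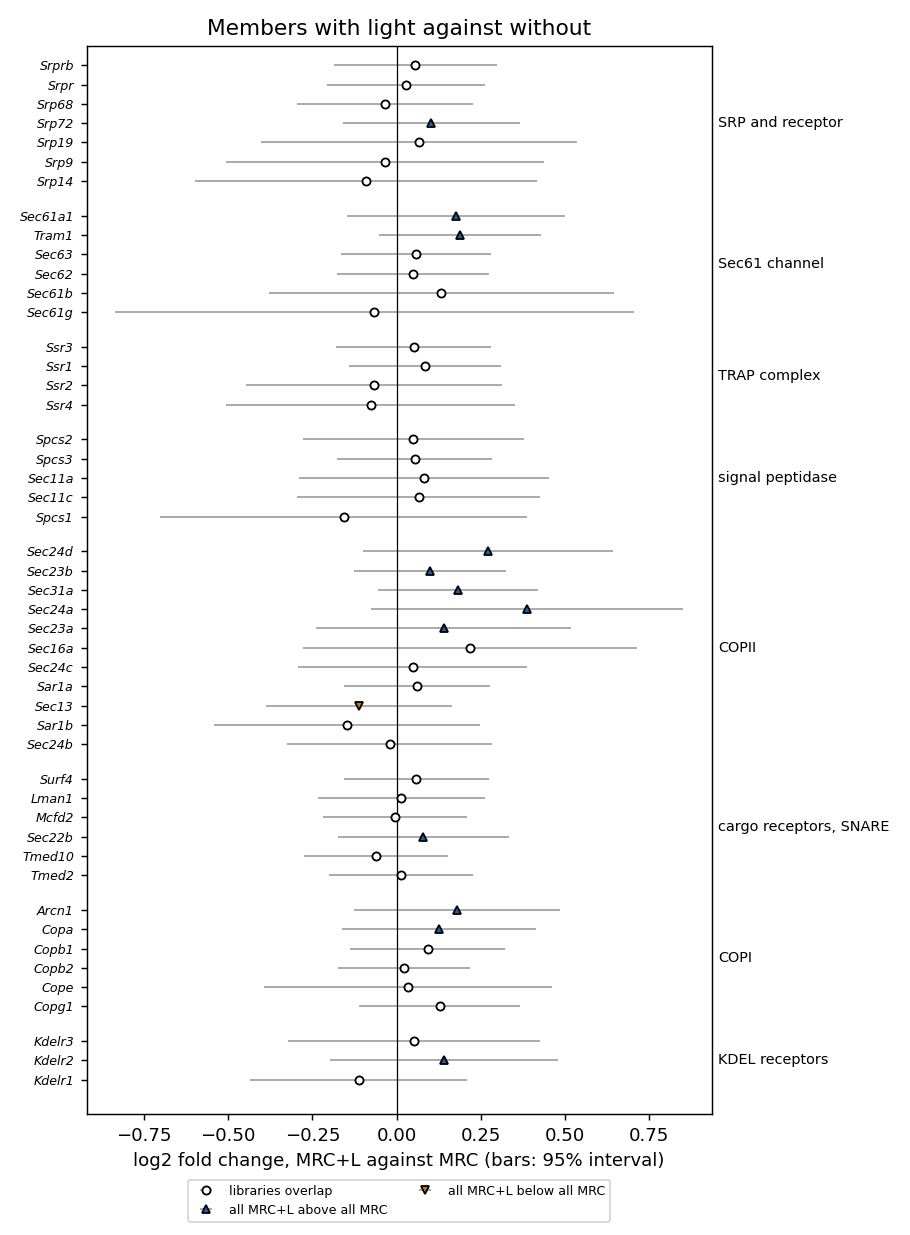
Log2 fold change of each of the 48 genes in MRC+L against MRC with its 95% interval from the edgeR fit over 9 libraries; triangles mark the 13 genes whose MRC+L and MRC libraries do not overlap. All intervals cross 0, and the points lie between -0.16 (Spcs1) and 0.39 (Sec24a).

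Other genes of the pathway moved in both directions. Of 94 other genes listed for translocation, membrane insertion, coat assembly, vesicle tethering and their control, 93 were tested. In MRC 28 were called higher and 8 lower, and in MRC+L 32 and 9; the median log2 fold change was 0.15 in both comparisons. The shares of all genes were 17.8% higher and 19.8% lower in MRC, and 21.8% and 24.5% in MRC+L. Without PBS replicate 2 the counts were 47 and 13 in MRC, and 48 and 15 in MRC+L. With 6 libraries, where 92 were tested, they were 18 and 3 in MRC, and 26 and 8 in MRC+L. Whether the share differs from that of the 48 was not tested.

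Of 13 genes listed as other translocation genes, 6 were called higher in MRC (17.8% of all genes) and 0 lower. Among them were Rpn1, a subunit of the glycan-adding oligosaccharyltransferase beside the channel (log2 fold change 0.94, edgeR adjusted p = 0.000183), and Dnajc3, a lumenal co-chaperone (0.81, edgeR adjusted p = 0.000517). The 6 also count Snd1 (0.63, edgeR adjusted p = 0.000795), although its protein is an RNA-binding protein and not part of the translocation machinery. Of the 16 genes of the tail-anchor and EMC insertion routes 0 were called higher and 2 lower, where 19.8% of all genes were lower. These were Emc8 (-0.48, edgeR adjusted p = 0.0311) and Emc9 (-1.13, edgeR adjusted p = 0.0333), and both lost the call with 6 libraries (edgeR adjusted p = 0.0884 and 0.0665). Without PBS replicate 2, 6 of the 16 were called higher and 3 lower.

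Around the COPII coat 5 of 21 further genes (23.8%) were called higher, near the 17.8% of all genes, and 1 lower; without PBS replicate 2 the counts were 12 and 2. Tmed9, another p24 protein, had a log2 fold change of 0.78 (edgeR adjusted p = 0.000621), Mia3, which helps load collagen into COPII carriers, had 0.89 (edgeR adjusted p = 0.0018), and Sec23ip, a partner of Sec23, had 0.43 (edgeR adjusted p = 0.00603). The gene that fell was Ergic3 (-0.41, edgeR adjusted p = 0.0463; 0.117 with 6 libraries), named after its value was seen.

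Of 10 other COPI genes, which include the coat subunit genes Copg2, Copz1 and Copz2, 3 were called higher (17.8% of all genes) and 1 lower. The 3 all code for GTPase-activating proteins of ARF1. With 6 libraries only Arfgap3 was called. Arfgap3 went from 23.7 ± 1.06 to 52.1 ± 2.17 CPM (log2 fold change 1.13, edgeR adjusted p = 2.08e-05), while Arfgap1 and Arfgap2 had 0.38 and 0.42 (edgeR adjusted p = 0.0139 and 0.0276; 0.0518 and 0.0699 with 6 libraries). The one that fell was the small GTPase gene Arf5 (-0.80, edgeR adjusted p = 0.0361; 0.0914 with 6 libraries), also named after its value was seen.

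The tethers and SNAREs that receive the vesicles had 10 of 24 genes called higher and 4 lower (17.8% and 19.8% of all genes), and 6 and 3 with 6 libraries. Bet1, a SNARE of ER-to-Golgi vesicles, went from 23.8 ± 2.51 to 57.9 ± 4.42 CPM (log2 fold change 1.28, edgeR adjusted p = 2.81e-05). Uso1, the tether p115, had 1.02 (edgeR adjusted p = 0.000157), and Gorasp2, which links Golgi stacks, had 0.83 (edgeR adjusted p = 0.000132). The 4 that fell, named after their values were seen, were Trappc1 (-1.65), Rab1b (-0.82), Zw10 (-0.45) and Trappc3 (-0.41); the call of Trappc3 was lost with 6 libraries (edgeR adjusted p = 0.0871).

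Of the regulators, 4 of 9 tested were called higher and 0 lower in MRC (17.8% and 19.8% of all genes); with 6 libraries Xbp1 alone was called. Xbp1, whose spliced form drives many secretory genes, went from 73.1 ± 14.9 to 159.8 ± 13.4 CPM in MRC and 173 ± 12.0 CPM in MRC+L (log2 fold changes 1.13 and 1.24, edgeR adjusted p = 0.000264 and 0.000111). Gene counts do not separate its spliced from its unspliced form. Atf6 had 0.71 (edgeR adjusted p = 0.0221; 0.0605 with 6 libraries) and Creb3l2, a related factor known to control Sec23a in cartilage, had 0.68 (edgeR adjusted p = 0.0352; 0.0615 with 6 libraries). Creb3l1 was at or under 0.045 CPM on average in each group and was not tested.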

How the data were processed

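Total RNA from 4T1 cells, taken with Trizol, went into 9 TruSeq libraries, 3 per group, per the labels' protocols. The files deposited hold a raw count per gene and library, made with featureCounts 2.0.1 over exons by gene with paired ends and Ensembl release 104 on GRCm39, per the file headers. Strand was not set there, and the aligner is not given in the sources used here. Symbols came from GENCODE by gene ID (52083 of 55416). Genes were kept at a minimum count of 10 and total of 15. Tests used edgeR 4.0.16 (TMM, all 9 libraries, 1 mean per group, Benjamini-Hochberg over 13439 genes, prior count 0.125), checked on simulated data. Alternatives used limma 3.58.1 and DESeq2 1.42.0 in R 4.3.3; plots used Python 3.11.15 with matplotlib 3.10.9. The genes and lists were chosen with earlier results of these data known. Values per library are given for the 2 genes of each role with the smallest adjusted p in MRC against PBS and for genes called with at least a 2-fold change; other pathway lists name up to 3 genes each by adjusted p.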

Additional observations from a re-analysis of the deposited data

How the results depend on the processing

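Over 171 alternative counts and medians of the 48 genes, 156 stayed within the limits set for a change (1.5 times for a count, 1 SD between replicates for a median) and 15 did not. With one library left out at a time, 20 to 40 genes were called higher in MRC against PBS and 0 to 2 lower (median 0.40 to 0.43). Of all genes 12.2% to 24.7% were then higher and 13.6% to 26% lower. In MRC+L against PBS 25 to 39 were higher and 0 to 3 lower (median 0.45 to 0.53), beside 16.1% to 27.4% and 17.9% to 28.3% of all genes. In MRC+L against MRC 0 and 0 were called (median 0.03 to 0.07), beside at most 0.313% and 0.335% of all genes. Lower calls numbered 2 in MRC and 2 in MRC+L with limma voom quality weights, in 9 libraries and in the 6 of each comparison. Of all genes, voom called 32.9% and 37.1% lower in 9 libraries, and 32.8% and 36.5% in 6. Without PBS replicate 3 lower calls numbered 2 and 3 (23.5% and 28.1% of all genes). In MRC+L they also numbered 1 with DESeq2 (25.8%), 1 with upper-quartile factors (26%) and 2 with no filter on low counts (12.2%). The median in MRC+L was 0.55 with voom in 9 libraries and 0.55 in 6. For MRC+L against MRC, calls of higher genes numbered 2 with voom (1.06% of all genes) and 2 in the 6 libraries alone (3.13%). They numbered 5 with voom in the 6 libraries (4.47%), and 2 without PBS replicate 2 with the length trend removed (1.1%). Upper-quartile factors lowered the median of all genes to -0.07 in MRC and -0.08 in MRC+L.

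Of 2736 alternative values for single genes, 2508 were counted as unchanged, 103 lost a call, 123 gained one and 2 reversed. A change of direction counted as reversed only where the main fit or the alternative called the gene. The 2508 thus include uncalled genes whose direction changed, such as Srp14 in MRC, which became 0.15 without PBS replicate 2. Genes with a negative value in MRC numbered 5 in the main fit and 11 without PBS replicate 3. Both reversals were of Srp9, which became 0.25 in MRC and 0.23 in MRC+L, called higher, without PBS replicate 2 with the length trend removed. That alternative, like the voom fit of 6 libraries, was chosen after seeing the data. The cause of the reversals was not tested. Of the 29 calls in MRC, 19 held under all 19 alternatives, and of the 31 in MRC+L, 23 did.

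Deviations of same-numbered libraries from their group means correlated between -0.24 and 0.07, and those of differently numbered libraries between -0.19 and 0.27. With 3 libraries per group and the shift of PBS replicate 2 among them, these values cannot show whether same-numbered libraries were handled together. With the replicate block, 25 genes were higher and 0 lower in MRC, 28 and 0 in MRC+L, and 0 and 0 in MRC+L against MRC, with medians of 0.42, 0.49 and 0.06. Of all genes 15.3% were then higher and 16.5% lower in MRC, 19.6% and 21.3% in MRC+L, and 0% and 0% in MRC+L against MRC. Leaving out 1 library leaves 2 in its group, and 3 libraries per group limit what can be called.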
